A study of Mus musculus with 18 samples.

Results

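Paraspeckles are nuclear bodies that assemble on a long noncoding RNA, *Neat1*, and are held together by RNA-binding proteins. The genes followed here were the 6 named *Pspc1*, *Nono*, *Sfpq*, *Rbm14*, *Neat1* and *Malat1*, out of 54446 genes in the count files, found by matching gene identifiers to the GENCODE M21 annotation. They were matched by name, with no threshold on their measured values, and with earlier results of these data known. Nascent RNA was sequenced from WT and *Tet2*-KO mouse embryonic stem (mES) cells after 10, 20 or 40 min of labelling with 1 mM 5-ethynyl uridine (EU), a uridine analogue that is incorporated into RNA as it is made and allows that RNA to be pulled out. The 6 groups had 3 replicate dishes each, which gave 18 libraries.

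Feeder cells had been cleared by passaging. Each genotype was represented by 1 line, received from another laboratory, so that genotype and line cannot be told apart, and the p-values measure the spread between dishes. The medium of all groups held serum, LIF and the inhibitors CHIR99021 and PD0325901. ERCC spike-in RNA was added to the pulled-out RNA, scaled to the total RNA of the sample. A level per ERCC read is therefore a level per amount of total RNA and not per cell. Fewer cells of a type and less RNA per cell cannot be told apart in bulk samples.

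The libraries held 17931614 to 23069143 gene reads, and 44162 to 512186 ERCC reads. *Tet2*, counted over its whole gene, had 589 to 741 reads per 1000000 gene reads (RPM) in WT and 530 to 643 in *Tet2*-KO libraries. The ranges overlapped, and these counts do not show which part of the gene was deleted. Embryonic stem cell markers summed to 2872 to 3053 RPM in WT and 2093 to 2210 in *Tet2*-KO libraries, and *Sox2* had no read. That count does not show that *Sox2* was silent, since genes lying inside another of the same strand went almost uncounted (see *Rbm14*). Whether *Sox2* is such a gene was not tested. *Pou5f1* and *Nanog*, core pluripotency factors, had means of 89.2 and 311 RPM in WT and 99.4 and 286 in *Tet2*-KO libraries. *Zfp42*, a marker of the naive state, averaged 539 and 113. Fibroblast markers, which feeder cells would bring, summed to 2.98 to 16.9 and 5.49 to 12.8, primitive endoderm markers to 6.70 to 13.7 and 5.49 to 10.7, and trophectoderm markers to 17.5 to 24.2 and 24.4 to 29.5. Of the trophectoderm markers *Gata3* averaged 4.10 in WT and 11.3 in *Tet2*-KO libraries. *Tfap2c* averaged 14.5 and 13.5, *Krt8* 1.56 and 1.25, *Elf5* 0.232 and 0.377, and *Cdx2* 0.0838 and 0.129. The part of these differences in the results below was not tested.

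*Neat1* is the RNA scaffold of the paraspeckle. *Malat1*, its neighbour in the genome, is one of the most abundant nuclear RNAs and is found in nuclear speckles, where splicing factors gather. SFPQ, NONO and PSPC1 are the related DBHS proteins (named after their *Drosophila* and human relatives) that form dimers with each other and bind *Neat1*, and RBM14 links paraspeckle components through a prion-like domain. TET2 oxidises 5-methylcytosine in DNA and RNA.

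Reads were reported on 2 scales. The first was the number of reads per 1000 ERCC reads, which follows the amount of labelled RNA. The second was the share of all gene reads, in RPM, which follows a gene relative to the rest of the labelled transcriptome. Differences are log2 fold changes with their standard error (SE), and p-values are those of the edgeR quasi-likelihood test, adjusted by the Benjamini-Hochberg method over the 19910 genes that passed the filter on low counts. A gene was called at an adjusted p under 0.05. Of the 6 genes 5 passed the filter, and *Rbm14* did not.

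*Neat1* is a 20771-base gene on the minus strand of chromosome 19 (mm10, chr19:5824708-5845478), annotated as a lincRNA. *Malat1* lies 22035 bases away on the same strand (chr19:5795690-5802672, 6983 bases). The 20771-base *Neat1* transcript and *Malat1* end in U-rich stretches that pair with an A-rich tract to form a triple helix. RNase P cuts after the tract to release a small tRNA-like RNA. The stretches are shown because they mark this kind of end. Reads were counted over the whole *Neat1* gene, so any shorter *Neat1* transcript that ends elsewhere was not told apart from the full-length one. Capitals mark matches to 4 or more T, 1 or 2 of G or C, then 4 or more T, and to 4 or more A, GC, then 4 or more A. Letters are those of the GENCODE M21 transcripts, with T for U, 5′ to 3′. The *Neat1* stretch ends at the last annotated base (chr19:5824708-5824760, minus strand), and the *Malat1* stretch ends 292 bases before the end of the annotated gene (chr19:5795982-5796067, minus strand). The third sequence is Gm27702, the 56-base RNA annotated directly after *Neat1* (chr19:5824652-5824707, minus strand), which had at most 4 reads in any library.
Neat1 end: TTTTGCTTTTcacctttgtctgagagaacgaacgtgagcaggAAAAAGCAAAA
Malat1 stretch: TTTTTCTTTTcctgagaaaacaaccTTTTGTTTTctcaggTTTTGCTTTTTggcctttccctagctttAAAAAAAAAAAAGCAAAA
Gm27702: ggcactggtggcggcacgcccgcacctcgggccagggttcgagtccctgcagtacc

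The share of *Neat1* in the nascent RNA was lower in *Tet2*-KO than in WT mES cells, at 0.528, 0.503 and 0.598 of the WT mean after 10, 20 and 40 min. At 10 min the WT libraries held 592, 606 and 612 RPM of *Neat1* and the *Tet2*-KO libraries 311, 317 and 327. At 20 min they held 575, 584 and 591 against 277, 299 and 304. At 40 min they held 449, 450.1 and 453 against 258, 270.4 and 279.6. The highest *Tet2*-KO library of all 9 lay below the lowest of the 9 WT libraries. The log2 fold change averaged over the labelling times was −0.89 ± 0.017 (SE, adjusted p = 5.69e-30), against a median of −0.037 over all tested genes. Of the tested genes 24.6% were called higher and 32% lower in this comparison, and 6.18% had a lower fold change than *Neat1*.

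The share of *Malat1* was lower in *Tet2*-KO libraries too, and by less. *Malat1* took 1.377 to 1.54% of all gene reads in WT and 1.076 to 1.19% in *Tet2*-KO libraries, and made up 89.9% of the reads of the 6 genes together. At 10 min it had 15248, 15404 and 15443 RPM in WT and 11475, 11608 and 11932 in *Tet2*-KO libraries. At 20 min it had 14588, 14678 and 14748 against 11015, 11064 and 11314, and at 40 min 13767, 14065 and 14132 against 10763, 10826 and 10904. The 2 genotypes did not overlap at any time. The averaged log2 fold change was −0.39 ± 0.0072 (adjusted p = 2.67e-30), and 19.4% of the tested genes lay below it.

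**Figure D1:**
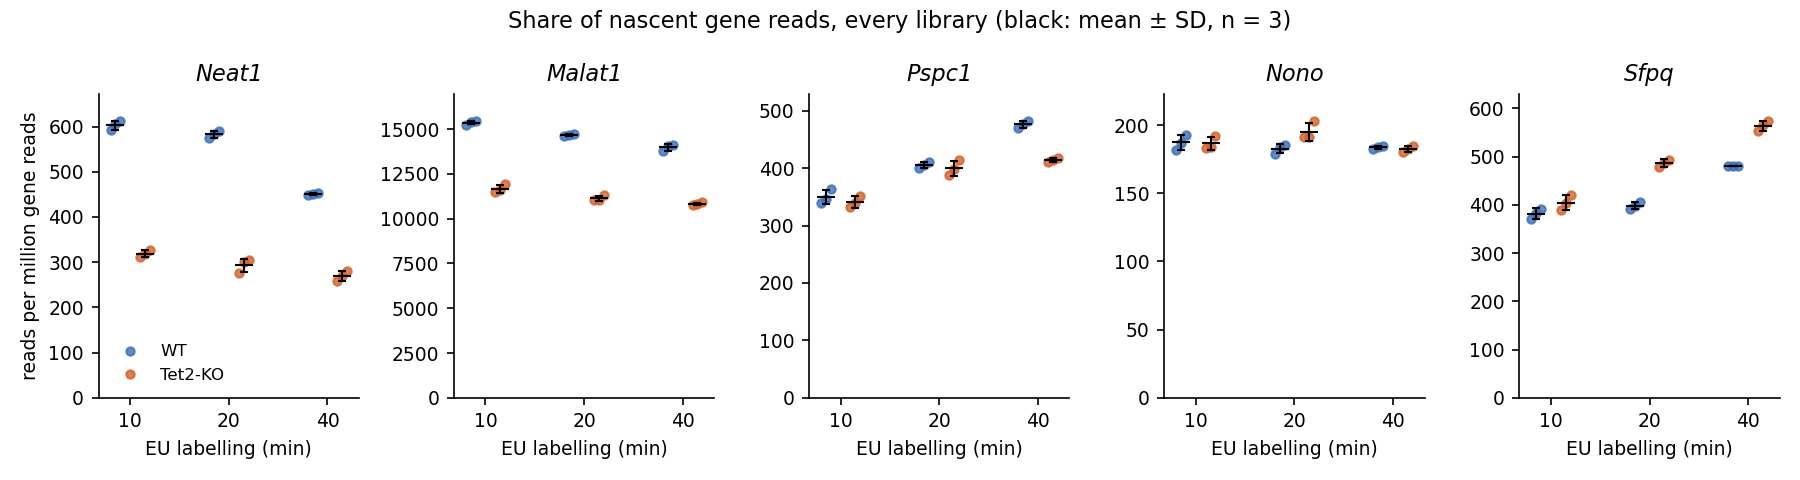
Share of nascent gene reads of the 5 genes with reads, in RPM (vertical axis, from 0) by minutes of EU labelling (horizontal axis); each point is 1 library, blue for WT and orange for Tet2-KO, and black marks give the mean ± SD of 3. Neat1 and Malat1 are lower in every Tet2-KO library at each time, Sfpq is higher at 20 and 40 min, and Nono stays between 179 and 203 throughout.

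Per ERCC read the picture of the 2 RNAs was different, since most genes were higher in *Tet2*-KO cells on this scale: 80.5% of the tested genes were called higher, 4.15% lower, and the median log2 fold change was 0.70. *Neat1* was called lower all the same, by a small amount (log2 fold change −0.15 ± 0.050, adjusted p = 0.00326, with 6.26% of tested genes below it). At 10 min *Neat1* had 25.4, 28.5 and 30.8 reads per 1000 ERCC reads in WT and 29.3, 29.9 and 31.9 in *Tet2*-KO libraries, which overlapped. At 20 min it had 82.8, 84.4 and 90.3 against 57.4, 58.4 and 65.5, which did not, and at 40 min 107.5, 110.3 and 116 against 94.6, 107.2 and 120.04, which did. The difference passed the test at 20 min alone (−0.51 ± 0.086, adjusted p = 4.86e-08), with 0.11 ± 0.086 at 10 min (adjusted p = 0.240) and −0.054 ± 0.086 at 40 min (adjusted p = 0.576). The lower mean per ERCC read thus rested on 1 labelling time, whereas the lower share was present at all 3. The median over all tested genes also differed between the times on this scale, at 0.96, 0.45 and 0.67 after 10, 20 and 40 min. *Neat1* lay below that median each time, with 8.34, 6.32 and 8.56% of the tested genes lower still. Its place among all genes was thus similar at the 3 times.

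*Malat1* was called higher per ERCC read, with a log2 fold change of 0.34 ± 0.046 (adjusted p = 5.20e-13), below the median of all genes. It had 653, 719 and 783 reads per 1000 ERCC reads at 10 min in WT and 1069.5, 1101 and 1169 in *Tet2*-KO libraries. At 20 min the values overlapped, with 2045, 2130.3 and 2307 against 2168, 2336 and 2374. At 40 min they were 3294.3, 3422 and 3654 against 3962, 4325 and 4620.01. The difference was called at 10 min (0.63 ± 0.079) and 40 min (0.32 ± 0.079) and not at 20 min (0.085 ± 0.079, adjusted p = 0.358). At 10, 20 and 40 min 24.2, 21.1 and 19.6% of the tested genes lay below *Malat1*.

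At single labelling times, per ERCC read, the calls after 10 min of labelling took in 79% of the tested genes as higher and 2.1% as lower, those after 20 min 53.7% and 4.86%, and those after 40 min 68.2% and 2.84%. By share 17.9% were called higher and 27.1% lower after the shortest labelling (10 min), 17.6% and 20.7% after 20 min, and 18.9% and 19.6% after 40 min.

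**Figure D2:**
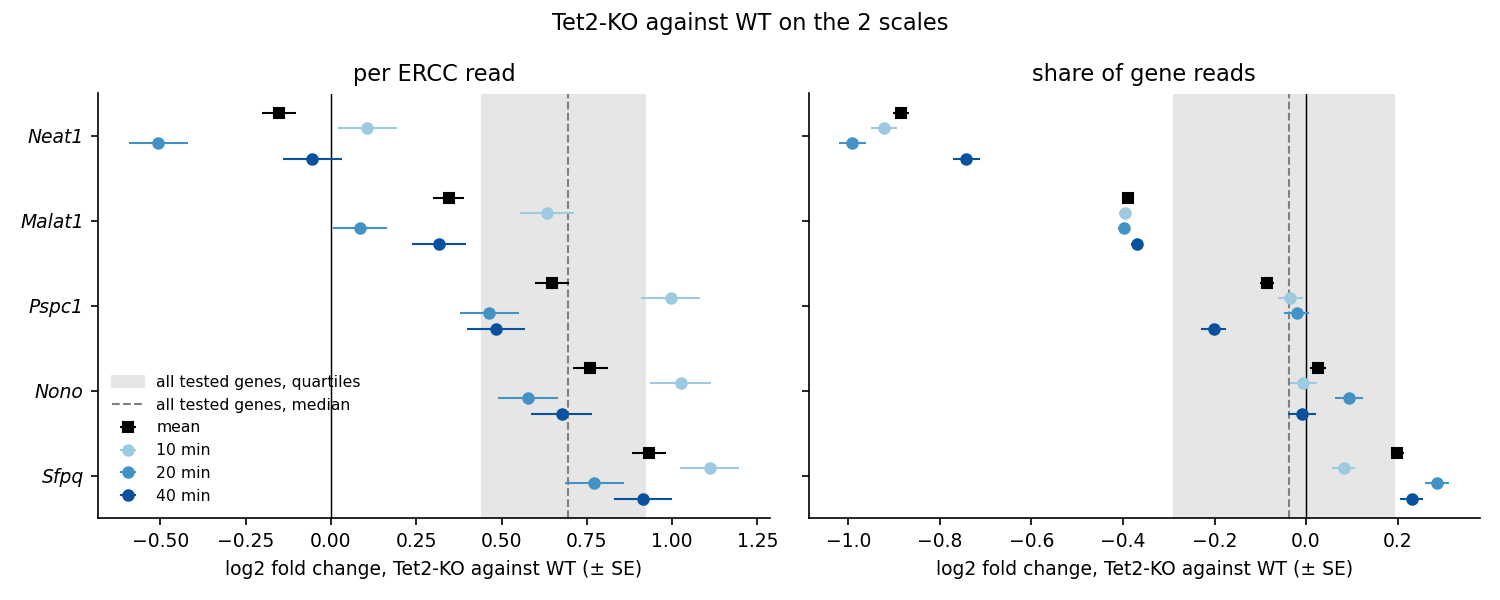
Log2 fold changes of Tet2-KO against WT (horizontal axis, ± SE) for 5 genes, per ERCC read on the left and by share of gene reads on the right; black squares are the mean over labelling times, blue circles the single times, and the grey band and dashed line the quartiles and median of all 19910 tested genes for that mean. Neat1 (−0.15 and −0.89) and Malat1 (0.34 and −0.39) lie left of the grey band on both scales.

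Ratios of the members within a library are the same on both scales. Within a library *Neat1* had 0.0389 to 0.0396 reads per read of *Malat1* at 10 min in WT and 0.0271 to 0.0274 in *Tet2*-KO cells, 0.0392 to 0.0405 against 0.0250 to 0.0276 at 20 min, and 0.0318 to 0.0326 against 0.0239 to 0.0260 at 40 min. The log2 ratio of *Neat1* to *Malat1* was 0.50 lower in *Tet2*-KO libraries (difference −0.50, n = 9 and 9, two-sided exact permutation test with genotypes exchanged within labelling times, p = 0.00025, the smallest that the 8000 exchanges can give, adjusted p = 0.0005 over 4 ratios). *Neat1* was therefore lower relative to its neighbour as well as relative to all genes. Against the summed reads of *Pspc1*, *Nono* and *Sfpq*, *Neat1* was lower by 0.94 on the log2 scale (difference −0.94, exact permutation p = 0.00025, adjusted p = 0.0005): its reads were 0.650 to 0.661 of that sum at 10 min in WT and 0.326 to 0.353 in *Tet2*-KO libraries, and 0.395 to 0.396 against 0.221 to 0.239 at 40 min.

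SFPQ, NONO and PSPC1 come from genes on different chromosomes. *Sfpq* (chr4:127021324-127037013, plus strand) spans 15690 bases, *Nono* (chrX:101429318-101448591, plus strand) 19274, and *Pspc1* (chr14:56720710-56778316, minus strand) 57607, of which 4743, 4375 and 5734 are annotated as exon. The counts covered introns as well as exons (see *Rbm14*), so most of the counted bases of these genes were intronic.

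*Sfpq*, whose protein is required for paraspeckles and also acts in splicing, was the member with the largest rise. At 10 min it had 370.4, 383 and 392 RPM in WT and 389, 403 and 420.3 in *Tet2*-KO libraries, which overlapped. At 20 min it had 391, 398 and 407 against 478, 487 and 494, and at 40 min 480.8, 481.2 and 481.2 against 553, 566 and 574, with no overlap. The averaged log2 fold change of the share was 0.20 ± 0.015 (adjusted p = 1.99e-13), and 75.6% of the tested genes lay below it. Per ERCC read it was 0.93 ± 0.050 (adjusted p = 3.00e-57). *Sfpq* rose on this scale from 16.4, 17.2 and 19.9 reads per 1000 ERCC reads in WT to 36.1, 39.2 and 40.3 in *Tet2*-KO libraries at 10 min, and from 115, 117 and 124 to 209.97, 219 and 243 at 40 min.

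*Nono*, the partner that SFPQ and PSPC1 both dimerise with, had the steadiest share of the 5 genes. Over the 18 libraries it ran from 179 to 203 RPM. At 10 min it had 182, 187 and 193 in WT and 183.5, 184.2 and 192 in *Tet2*-KO libraries, at 20 min 179, 184 and 185 against 191.0, 191.2 and 203, and at 40 min 182, 184 and 185 against 180.2, 183 and 185. The averaged log2 fold change of the share was 0.026 ± 0.018 (adjusted p = 0.218), with a 95% interval of −0.0087 to 0.060. The call depended on the scaling: *Nono* was called higher with TMM factors (0.066, edgeR adjusted p = 0.00178) and with DESeq2 (0.061, adjusted p = 0.00331). At 20 min alone *Nono* was called higher (0.093 ± 0.031, adjusted p = 0.0149). Per ERCC read it was higher by 0.76 ± 0.051 on the log2 scale (adjusted p = 7.21e-40), close to the median of all genes, with 58.4% of them below it.

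*Pspc1*, whose protein is the paraspeckle component that gave the gene its name, changed its share late. At 10 min it had 339, 346 and 363 RPM in WT and 332, 339 and 352 in *Tet2*-KO libraries, and at 20 min 401, 405 and 411 against 388, 398 and 414, both with overlap. At 40 min it had 469.5, 477 and 482 in WT and 410.5, 414 and 418 in *Tet2*-KO libraries, which did not overlap. The averaged log2 fold change of the share was −0.086 ± 0.016 (adjusted p = 1.78e-05). It was −0.20 ± 0.027 at 40 min (adjusted p = 1.67e-07), −0.034 ± 0.027 at 10 min (adjusted p = 0.323) and −0.021 ± 0.027 at 20 min (adjusted p = 0.596). Per ERCC read *Pspc1* was higher in *Tet2*-KO libraries, by 0.65 ± 0.050 on the log2 scale (adjusted p = 1.47e-32), from 14.8, 16.9 and 17.2 to 30.4, 33.5 and 33.8 reads per 1000 ERCC reads at 10 min.

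The make-up of the 3 DBHS genes differed between the genotypes as well. The log2 ratio of *Sfpq* to *Nono* was higher in *Tet2*-KO libraries by 0.17 (exact permutation p = 0.00075, adjusted p = 0.001), and that of *Pspc1* to *Nono* was lower (difference −0.11, exact permutation p = 0.004, adjusted p = 0.004). At 40 min there were 2.60 to 2.64 reads of *Sfpq* per read of *Nono* in WT and 3.07 to 3.14 in *Tet2*-KO libraries. For *Pspc1* these were 2.55 to 2.62 in WT and 2.25 to 2.29 in *Tet2*-KO libraries. At 10 min the genotypes overlapped in both ratios.

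**Figure D3:**
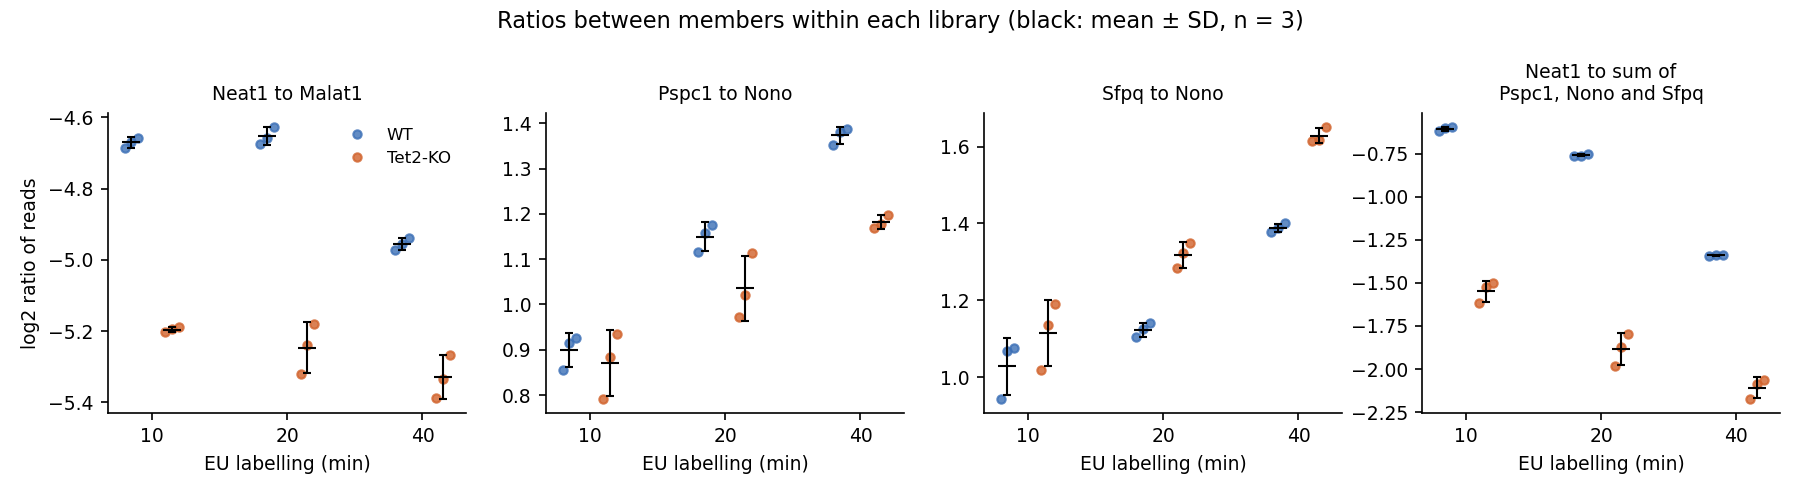
Log2 ratio of the reads of 2 genes, or of Neat1 to the sum of 3, within each library (vertical axis, not from 0) by minutes of EU labelling; each point is 1 library, blue for WT and orange for Tet2-KO, with the mean ± SD of 3 in black. Both ratios of Neat1 are lower in all Tet2-KO libraries, and the 2 ratios to Nono separate the genotypes at 20 and 40 min and overlap at 10 min.

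*Rbm14* could not be measured. It had 1 read in 1 of the 18 libraries, and a count of 0 allows up to 3 reads, or 0.167 RPM in the shallowest library (counting error only). Its 11066-base span (chr19:4800569-4811634, minus strand) lies inside Gm21992 (chr19:4742913-4811612, minus strand). All but 22 bases are shared, although 3183 of its 3910 exonic bases are in no exon of another gene on that strand. Across the files 451 of 452 protein-coding genes that lie wholly inside another gene of the same strand had no read in any library (99.8%), against 1861 of 21466 other protein-coding genes (8.67%). Reads were thus assigned over whole genes, introns included, and those that fell in 2 genes were counted for neither. The start of *Rbm14* is shown because it holds the only bases that could give it a read: they are in capitals (RefSeq, GRCm38.p6, chr19:4811585-4811884, minus strand, 250 bases before to 50 after the annotated start).
Rbm14 start: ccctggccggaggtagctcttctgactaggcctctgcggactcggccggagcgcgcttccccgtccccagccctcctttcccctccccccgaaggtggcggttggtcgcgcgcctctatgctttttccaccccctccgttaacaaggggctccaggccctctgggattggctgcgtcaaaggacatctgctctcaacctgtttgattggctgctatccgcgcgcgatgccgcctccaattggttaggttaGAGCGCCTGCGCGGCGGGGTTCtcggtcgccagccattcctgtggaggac

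The other overlaps were smaller. The 3 small RNAs annotated inside *Neat1* on its strand, and the one inside *Malat1*, had no read, and leave 20387 and 6897 bases of the 2 genes that could be counted. Gm12940 overlaps the end of *Sfpq*, which leaves 12407 of its 15690 bases, and had 455 to 922 reads.

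Levels of different genes were compared per length. In RPM per kilobase of gene, *Malat1* had 1971 to 2211 in WT and 1541 to 1709 in *Tet2*-KO libraries. With the labelling times pooled, *Neat1* and *Sfpq* overlapped in WT, at 21.6 to 29.5 and 23.6 to 30.7. At each single time their WT libraries were apart, and the order reversed by 40 min. The WT means of *Neat1* and *Sfpq* were 29.05 and 24.35 at 10 min, and 28.08 and 25.39 at 20 min. At 40 min they were 21.70 and 30.66. In *Tet2*-KO libraries the 2 genes were apart even when pooled, at 12.4 to 15.7 and 24.8 to 36.6. *Nono* followed with 9.29 to 10.5 over all 18 libraries and *Pspc1* with 5.77 to 8.36. The length of the protein-coding genes is mostly intron, and that of the 2 lncRNAs is exon throughout. Lengths were those of whole genes, of which 12407 of 15690 bases of *Sfpq* and 20387 of 20771 of *Neat1* could be counted. Per countable base *Sfpq* would lie higher relative to *Neat1*. Their order in WT at 10 and 20 min, and their pooled overlap, thus depend in part on the length used.

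The labelling time changed the members in opposite directions. From 10 to 40 min the share of *Neat1* fell by 0.42 ± 0.028 on the log2 scale in WT (adjusted p = 6.74e-14) and by 0.24 ± 0.030 in *Tet2*-KO cells (adjusted p = 5.72e-08). That of *Malat1* fell by 0.14 ± 0.012 in WT and by 0.11 ± 0.012 in *Tet2*-KO cells. *Pspc1* rose by 0.45 ± 0.027 in WT and 0.28 ± 0.027 in *Tet2*-KO cells, and *Sfpq* by 0.33 ± 0.026 and 0.48 ± 0.026. *Nono* was not called, with −0.028 ± 0.030 in WT (adjusted p = 0.484) and −0.032 ± 0.031 in *Tet2*-KO cells (adjusted p = 0.458). In WT 16.1% of the tested genes were called higher and 29.5% lower from 10 to 40 min, and in *Tet2*-KO cells 16.5% and 20%.

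The fall of *Neat1* in WT came late. Its share went from a mean of 603 ± 9.91 RPM at 10 min (SD, n = 3) to 583 ± 8.04 at 20 min and 451 ± 2.07 at 40 min. In *Tet2*-KO libraries it went from 318 ± 7.86 to 293 ± 14.6 and 269 ± 10.7. Per ERCC read *Neat1* grew 3.04-fold from 10 to 20 min in WT and 1.30-fold from 20 to 40 min (log2 fold changes 1.61 ± 0.088 and 0.38 ± 0.086, against medians of 1.63 and 0.64 over all genes). In *Tet2*-KO cells it grew 1.99-fold and 1.77-fold (0.99 ± 0.087 and 0.83 ± 0.087, against 1.11 and 0.89).

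All 5 genes gained reads per ERCC read with labelling, as did 96.7% of the tested genes in WT and 94.7% in *Tet2*-KO cells from 10 to 40 min. *Pspc1* gained 7.21-fold in WT and 5.06-fold in *Tet2*-KO cells, *Sfpq* 6.65-fold and 5.81-fold, *Nono* 5.18-fold and 4.07-fold, *Malat1* 4.81-fold and 3.86-fold, and *Neat1* 3.95-fold and 3.53-fold. The median log2 gain over all genes was 2.26 in WT and 1.996 in *Tet2*-KO cells, and *Neat1* lay below it in both, at 1.98 ± 0.089 and 1.82 ± 0.089.

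A least-squares line through the 9 libraries of a genotype gives a rate, in reads per 1000 ERCC reads per min, which is described here with no test. For all gene reads together the slope in *Tet2*-KO cells was 1.55 times that in WT. It was 1.87 times for *Sfpq* (6.19 ± 0.255 against 3.32 ± 0.129, SE), 1.52 times for *Nono* (1.79 ± 0.110 against 1.18 ± 0.0889), 1.32 times for *Pspc1* (4.36 ± 0.239 against 3.31 ± 0.165) and 1.21 times for *Malat1* (105 ± 5.27 against 87.5 ± 8.16). For *Neat1* the slopes were 2.53 ± 0.203 and 2.56 ± 0.430, a ratio of 0.989. The line described *Neat1* in WT least well, with an R2 of 0.835 against 0.943 to 0.989 for the other 4 genes in WT.

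**Figure D4:**
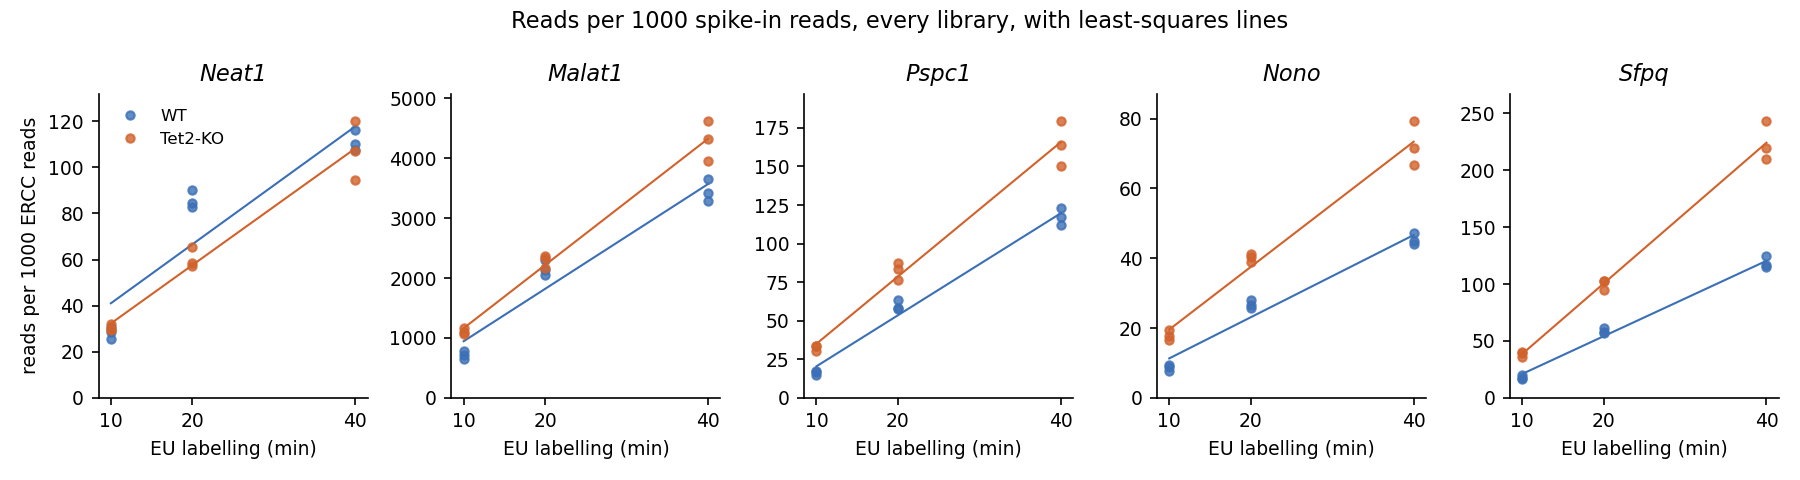
Reads per 1000 ERCC reads (vertical axis, from 0) by minutes of EU labelling for 5 genes; each point is 1 library, blue for WT and orange for Tet2-KO, and lines are least-squares fits. The Sfpq line is 1.87 times as steep in Tet2-KO cells, the 2 Neat1 lines are about parallel, and the WT libraries of Neat1 at 20 min lie above their line.

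The difference between the genotypes itself changed from 10 to 40 min for some of the members. By share, it became smaller for *Neat1* (log2 change 0.18 ± 0.041, adjusted p = 0.00394), larger for *Sfpq* (0.15 ± 0.037, adjusted p = 0.00743) and more negative for *Pspc1* (−0.17 ± 0.038, adjusted p = 0.00379), and was not called for *Malat1* (0.028 ± 0.018, adjusted p = 0.375) or *Nono* (−0.0041 ± 0.043, adjusted p = 0.975). By share 5.89% of the tested genes were called higher and 3.36% lower in this comparison. The quartiles of all tested genes were −0.12 and 0.28. *Neat1* and *Sfpq* lay between them, and *Pspc1* below. Per ERCC read, where 0.552% were called higher and 19.3% lower, the difference fell for *Pspc1* (−0.51 ± 0.121, adjusted p = 0.00118), *Nono* (−0.35 ± 0.125, adjusted p = 0.0330) and *Malat1* (−0.32 ± 0.112, adjusted p = 0.0306). It was not called for *Sfpq* (−0.19 ± 0.12, adjusted p = 0.250) or *Neat1* (−0.16 ± 0.122, adjusted p = 0.362).

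Related genes were described by their share, *Tet2*-KO against WT averaged over labelling times, beside the 24.6% of all tested genes called higher, the 32% called lower and the median of −0.037. Of 28 other paraspeckle proteins 27 were tested, 10 were called higher and 7 lower, with a median of 0.015. *Rbm12* had no read, which as with *Rbm14* does not show that it was silent. *Hnrnph3*, a splicing factor, was highest (0.49 ± 0.023), followed by *Hnrnpr* (0.22 ± 0.021), another hnRNP. *Fam98a* (−0.30 ± 0.043) and *Cirbp*, a cold-inducible RNA-binding protein (−0.28 ± 0.056), were lowest. Per ERCC read all 27 were called higher, with a median of 0.75, beside 80.5% of all tested genes called higher and their median of 0.70.

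The 15 nuclear speckle proteins moved within a narrow range. By share 9 were called higher and 1 lower, with a median of 0.067 and all values between −0.048 and 0.20. The splicing factors *Srsf1* (0.20 ± 0.024) and *Prpf8* (0.18 ± 0.018) were highest. *Acin1* was lowest and called (−0.048 ± 0.018, adjusted p = 0.0261), and *Ddx39b* was next (−0.046 ± 0.020, adjusted p = 0.0536).

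Of 12 genes for the cutting of the *Neat1* and *Malat1* ends, namely RNase P subunits and the tRNase Z gene *Elac2*, 10 were tested. By share 2 were called higher, 2 lower and 6 neither, with a median of 0.044. *Pop5* (0.68 ± 0.095) and *Rpp40* (0.26 ± 0.062) were highest and *Pop1* (−0.22 ± 0.022) and *Rpp30* (−0.22 ± 0.035) lowest, all 4 of them RNase P subunits. *Pop7* and *Rpph1*, the RNA subunit, had no read, which does not show that they were silent. Whether the assignment of reads left them uncounted, as with *Rbm14*, was not tested.

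Other nuclear lncRNAs were spread more widely. Of 12 listed, 11 were tested, 2 were called higher and 7 lower by share, with a median of −0.47. *Airn* (1.61 ± 0.031) and *Kcnq1ot1* (0.60 ± 0.014), antisense RNAs of imprinted regions, were highest. *Tsix*, the antisense partner of *Xist* (−1.06 ± 0.054), and *Mirg* (−0.62 ± 0.034) were lowest. *Meg3* and *Rian*, of the same imprinted cluster as *Mirg*, had −0.47 ± 0.016 and −0.49 ± 0.019 and are named after their values were seen. Per ERCC read 7 were called higher and 1 lower, with a median of 0.27. Of all tested genes 80.5% were called higher and 4.15% lower on that scale, with a median of 0.70.

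**Figure D5:**
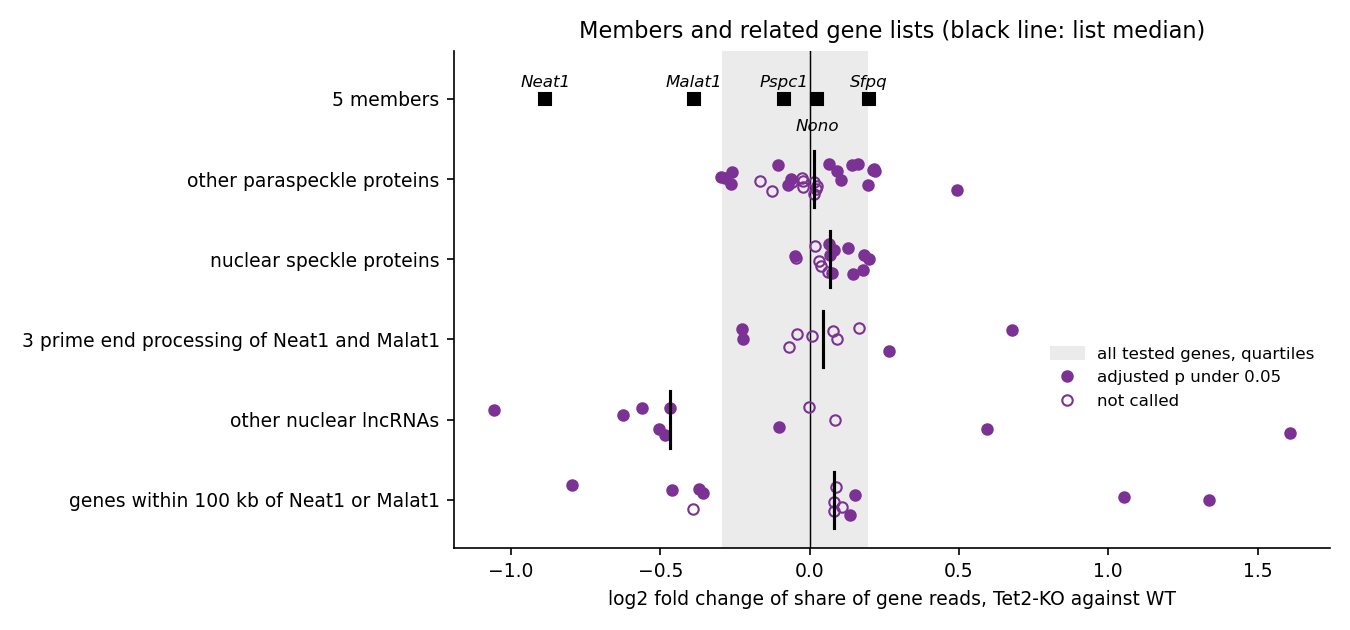
Log2 fold change of the share of gene reads, Tet2-KO against WT averaged over labelling times (horizontal axis), for the 5 members (squares) and each tested gene of 5 lists (circles, filled where the adjusted p was under 0.05); black lines are list medians and the grey band the quartiles of all tested genes. Nuclear speckle proteins lie between −0.048 and 0.20, while other nuclear lncRNAs run from −1.06 to 1.61.

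Around the 2 lncRNAs, 22 other genes lie within 100 kb, and 13 of them were tested. By share 4 were called higher and 4 lower, with a median of 0.082, so that the genes nearby did not all share the direction of *Neat1* and *Malat1*. *Frmd8*, on the far side of *Neat1* from *Malat1*, had 0.082 ± 0.048 (adjusted p = 0.148), and its antisense transcript *Frmd8os* had −0.79 ± 0.108 (adjusted p = 1.27e-07) at 47 to 206 reads. *Pola2*, a subunit of DNA polymerase alpha, had 0.13 ± 0.032 (adjusted p = 5.87e-04). These 3 were named after their values were seen.

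Promoters are shown for *Malat1* and *Sfpq*, the 2 members with a listed promoter whose shares moved furthest down and up, with the CpG sites, where most 5-methylcytosine in DNA lies, in capitals. Each is 250 bases before to 50 after the RefSeq start (GRCm38.p6), at chr19:5802623-5802922 (minus strand) and chr4:127021051-127021350 (plus strand). *Malat1* had 10 CpG sites and *Sfpq* 13, with 47% and 48% G and C, and *Nono*, *Pspc1* and *Rbm14* had 23, 23 and 25 sites. The median over 32851 listed promoters was 7 sites and 52.7% G and C. The methylation of these sites was not analysed here.
Malat1 promoter: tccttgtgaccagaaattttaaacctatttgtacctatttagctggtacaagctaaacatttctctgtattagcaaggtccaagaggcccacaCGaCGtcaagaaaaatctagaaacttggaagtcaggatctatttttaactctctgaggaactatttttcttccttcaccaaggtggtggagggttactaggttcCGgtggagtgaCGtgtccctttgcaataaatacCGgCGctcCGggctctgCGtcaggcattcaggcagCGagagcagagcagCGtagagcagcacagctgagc
Sfpq promoter: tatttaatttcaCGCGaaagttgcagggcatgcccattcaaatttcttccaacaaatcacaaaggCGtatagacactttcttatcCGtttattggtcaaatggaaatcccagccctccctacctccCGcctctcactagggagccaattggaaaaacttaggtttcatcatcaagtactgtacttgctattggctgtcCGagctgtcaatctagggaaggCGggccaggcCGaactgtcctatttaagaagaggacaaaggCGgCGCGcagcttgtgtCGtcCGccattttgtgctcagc

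The genes most like each member were sought among 9875 genes by Pearson's r of the log2 share over the 18 libraries, which all carry the genotype and labelling differences. *Neat1* was most like *Akap7*, *Catsperg1* and *Csrnp3* (r = 0.991, 0.990 and 0.990), and *Malat1* like *C2cd5*, *App* and *Ift46* (r = 0.994 in each case). *Neat1* and *Malat1* had an r of 0.987 with each other. *Pspc1* was most like *Camsap1*, *Prdm2* and *Ddx42* (r = 0.972, 0.966 and 0.964), and *Sfpq* like Gm2381, *Zfp980* and *Nrg1* (r = 0.973, 0.973 and 0.971). *Nono* had no close match, its highest r being 0.764 with *Nup205*, 0.744 with *Psmd5* and 0.735 with *Rhot1*.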

How the data were processed

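Nascent RNA libraries from 18 dishes (2 genotypes, 3 labelling times, 3 replicates) were analysed from the read counts per gene that the authors deposited. Per the submitters' notes and the study's methods, reads were trimmed with Trimmomatic (0.39), aligned to mm10 and the ERCC sequences with HISAT2 (2.2.1) and counted with HTSeq (0.12.4) on a GENCODE annotation. Names and coordinates were taken from GENCODE M21, in which 54409 of 54446 identifiers were found. Rows that name no gene were left out (no feature 13.2 to 16.9% of reads, ambiguous 2.32 to 2.50%, not unique 5.24 to 5.99%).

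Counts were tested with edgeR (4.0.16, R 4.3.3; quasi-likelihood, filterByExpr with a minimum count of 10, 19910 genes), with all 18 libraries in 1 fit of 6 groups, and scaled by total ERCC reads or by total gene reads without TMM. Alternatives used TMM, DESeq2 (1.42.0), other filters, other totals, a replicate term and left-out libraries. The tests were checked on simulated counts. The genes and lists were chosen with earlier results of these data known. From each list the 2 highest and 2 lowest tested genes by share were named, with genes overlapping a member or within 100 kb, and the 3 genes most like each member (pseudocount 1 read, mean log2 CPM above 3). *Rbm14* to *Nono* was also planned as a ratio and could not be computed. Values of 1 listed gene are not reported here.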

Additional observations from a re-analysis of the deposited data

Results flagged for a closer look

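The difference between *Tet2*-KO and WT mES cells changed between 10 and 40 min of labelling in 6 of the 10 tests made on the 5 measured genes and 2 scales, by the interaction term of edgeR's quasi-likelihood test. Per ERCC read the log2 change was −0.51 for *Pspc1*, −0.35 for *Nono* and −0.32 for *Malat1*, beside a median of −0.29 over all tested genes, of which 19.3% were called lower and 0.552% higher. The values of *Nono* and *Malat1* lie near that median. By share of gene reads it was −0.17 for *Pspc1*, 0.15 for *Sfpq* and 0.18 for *Neat1*, beside a median of 0.058. On that scale 5.89% of the tested genes were called higher and 3.36% lower. The values of *Sfpq* and *Neat1* lie between the quartiles of all tested genes (−0.12 and 0.28), and that of *Pspc1* lies below them.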

How the results depend on the processing

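Leaving out each library in turn changed no call and no direction in the 22 results recomputed (180 values for single genes, 216 for counts and ratios); the averaged log2 fold change per ERCC read of *Neat1*, the smallest called on that scale, ran from −0.18 to −0.12. With TMM in place of ERCC totals 2 members were called higher and 3 lower, and *Pspc1* (−0.046) and *Malat1* (−0.35) reversed; TMM removes the general rise per ERCC read by construction. By share, TMM and DESeq2 called 2 members higher in place of 1, the second being *Nono* (0.066 and 0.061). How many of all tested genes were called with TMM or DESeq2 was not counted, so these counts of members have no background beside them. At single labelling times the exact test cannot go below 0.1. At 10, 20 and 40 min the *Neat1* to *Malat1* differences were −0.53, −0.59 and −0.37, *Pspc1* to *Nono* −0.029, −0.11 and −0.19, *Sfpq* to *Nono* 0.087, 0.19 and 0.24, and *Neat1* to the summed proteins −0.94, −1.12 and −0.77. Libraries with the same replicate number did not deviate together (correlation −0.11 to 0.11), and with a replicate block *Neat1* had −0.15 per ERCC read and −0.89 by share, with no call changed. *Rbm14* is limited by its overlap with Gm21992, not by depth.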

Other observations

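Gm21992, the gene model that contains *Rbm14*, took 381 to 495 reads per 1000000 gene reads in WT and 455 to 636 in *Tet2*-KO libraries. Its share was higher in *Tet2*-KO libraries by 0.26 ± 0.013 on the log2 scale (adjusted p = 8.12e-18). Its reads cannot be assigned to *Rbm14*.

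Gm37376, annotated on the strand opposite to *Malat1* and wholly inside it (chr19:5801941-5802393, plus strand), had 139 to 325 reads. Its share was lower in *Tet2*-KO libraries by 0.46 on the log2 scale (−0.46 ± 0.067, adjusted p = 4.48e-07), next to −0.39 ± 0.0072 for *Malat1*. Whether these reads came from that strand or from *Malat1* RNA was not tested.

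Within 1 Mb the tested genes had median log2 fold changes of the share of −0.103 around *Neat1* (86 genes), −0.109 around *Pspc1* (32), −0.017 around *Nono* (24) and 0.0032 around *Sfpq* (37). The medians of chromosomes 19, 14, X and 4 were −0.067, −0.029, 0.023 and −0.021.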
